A study of Mus musculus with 12 samples.

Results

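The hypothalamic hormone genes described here were *Avp*, *Oxt*, *Crh*, *Trh*, *Ghrh*, *Sst*, *Gnrh1*, *Kiss1* and *Tac2*, together with the oxytocin receptor gene *Oxtr*. They were chosen by symbol, and 9 of the 10 symbols were found among 16855 genes listed on the chow diet and among 16744 listed on the HFD. *Kiss1*, which encodes kisspeptin, was listed on neither diet. Hypothalamus RNA came from 12 male mice of 8 weeks in 4 groups of 3, which were WT (+/+) and *Gpr75*-/- mice on chow and WT and *Gpr75*-/- mice given a HFD for 2 weeks from 6 weeks of age. The *Gpr75*-/- mice carry a CRISPR/Cas9 null allele on a C57BL/6J background, in every cell and from conception. The comparison asks how loss of GPR75, a G protein-coupled receptor, affects hypothalamic gene expression under each diet.

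Vasopressin and oxytocin are made by large neurons of the paraventricular and supraoptic nuclei and are released into the blood from the posterior pituitary, where they act on water balance and on birth and lactation. Smaller neurons release hypophysiotropic hormones into the portal blood of the pituitary stalk, and these hormones set how much the anterior pituitary secretes. CRH drives the adrenal axis, TRH the thyroid axis, GHRH and somatostatin the growth hormone axis, and GnRH the gonadal axis. Kisspeptin and neurokinin B, the product of *Tac2*, act on GnRH neurons.

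The values are the means that the authors deposited for each group, converted here to CPM, the reads of a gene per 1000000 counted reads. The scale of the deposited means is not stated and was inferred. It was compared with the mean counts only for genes with means of at least 100 normalized counts, so not for *Ghrh* and *Gnrh1*. No value of a single mouse was used, so a difference between genotypes could not be set against the spread between mice, and no test or p-value is given. The limits printed after a fold cover only the rounding of the deposited means to 2 decimals. Biological error comes on top of them. The 2 diets were normalized separately by the authors, so a level set beside one of the other diet is a description only. The mean normalized counts of an average mouse summed to 18280462 on chow and 19420111 on the HFD. In whole tissue, fewer cells of a type and less RNA per cell cannot be told apart.

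*Avp* and *Oxt* are neighbors on chromosome 2 (GRCm39), with *Oxt* at 130418093 to 130418974 and *Avp* at 130422540 to 130424474, 3565 bases apart. The coding sequences of the 2 hormones are shown because they differ so little. Capitals mark the 5 of 27 bases that differ between the GENCODE transcripts of release M21, in codons 24 to 32 of *Avp* and 20 to 28 of *Oxt*. They change 3 codons, and 2 of the 9 amino acids.

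vasopressin: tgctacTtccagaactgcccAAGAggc

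oxytocin: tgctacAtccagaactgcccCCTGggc

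Further along, the transcripts are identical over 127 bases of the part that encodes the neurophysin carrier protein. A read, or its pair, has to reach past this stretch to be assigned to 1 gene, and how such reads were assigned was not examined. The stretch is shown in full, from base 144 of the *Avp* transcript and base 156 of the *Oxt* transcript.

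shared: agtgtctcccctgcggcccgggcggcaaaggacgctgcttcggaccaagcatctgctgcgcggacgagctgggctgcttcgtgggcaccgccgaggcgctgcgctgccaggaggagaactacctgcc

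Promoter windows from 250 bases before the start of transcription to 50 after were found for 8 of the 10 genes in RefSeq (GRCm38.p6). *Crh* and *Gnrh1* had no entry. The cyclic AMP response element TGACGTCA, read on both strands, was present in 1 of the 8, *Sst*, and in 2.03% of all 27025 genes with a window. When the middle base was left free (TGACNTCA, which includes the first motif), *Trh* matched too, against 10% of all genes. A match describes the letters and is no evidence that a factor binds. Both stretches are shown 5′ to 3′ on the minus strand with the motif in capitals. It lies 48 to 41 bases before the *Sst* start (chr16:23890859-23890918) and 57 to 50 bases before the *Trh* start (chr6:92244674-92244733).

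*Sst*: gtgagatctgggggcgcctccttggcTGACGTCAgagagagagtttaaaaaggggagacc

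*Trh*: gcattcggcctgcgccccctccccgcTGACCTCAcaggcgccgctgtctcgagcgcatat

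Levels between genes were compared per kilobase of transcript. In WT mice on chow, *Oxt* had the highest level at 205 CPM per kilobase, followed by *Avp* at 153 and *Sst* at 147. *Trh* was at 49.9 and *Tac2* at 33.0 CPM per kilobase. *Crh*, *Ghrh* and *Gnrh1* were at 8.39, 7.26 and 6.51, and *Oxtr* was lowest at 1.76. *Oxt*, *Avp*, *Sst*, *Trh*, *Tac2*, *Crh* and *Oxtr* held the same places in WT mice on the HFD, where *Gnrh1* (6.59) stood above *Ghrh* (5.89). Which neighbors in this order differ beyond the spread between mice cannot be said.

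**Figure D1:**
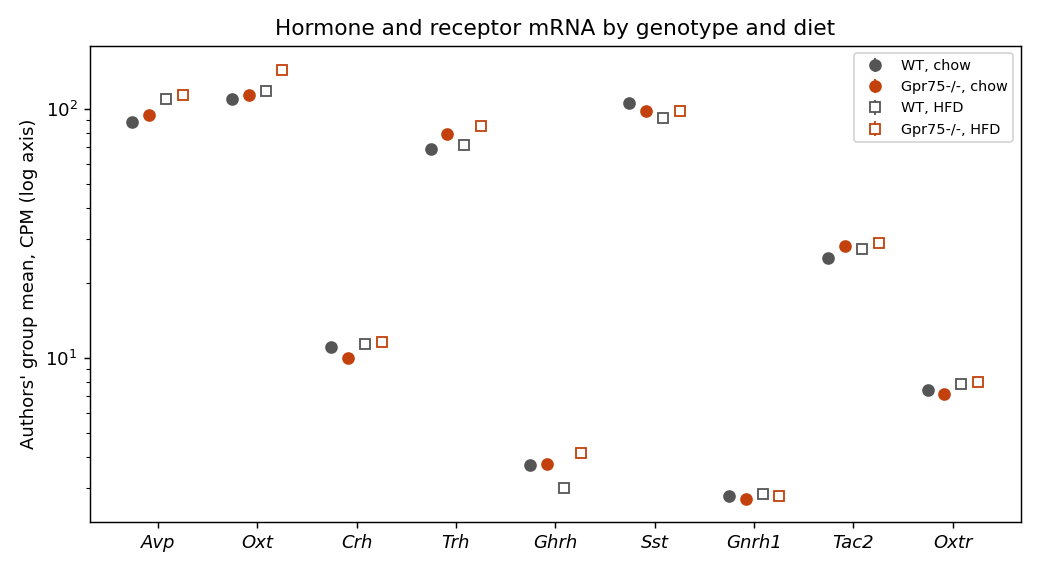
Group means of the 9 listed genes in CPM, on a log axis, for WT (grey) and *Gpr75*-/- (orange) mice on chow (filled circles) and on the HFD (open squares). Bars give the limits of rounding and are mostly hidden by the symbols. *Oxt*, *Avp*, *Sst* and *Trh* lie between 69.1 and 144 CPM, and *Ghrh* and *Gnrh1* between 2.69 and 4.15 CPM.

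On chow, 5 of the 9 genes were higher in *Gpr75*-/- mice and 4 lower, with a median log2 difference of 0.02, and the difference of 7 was larger than rounding allows. Among all genes, 44.8% were higher by any amount and 62% differed by more than rounding allows. Past a 25% difference (over 25% higher or over 20% lower than WT) there was none of the 9, against 7.57% of all 16851 genes with a mean of at least 10 normalized counts. Differences ran from -0.15 (*Crh*) to 0.20 (*Trh*) on the log2 scale, and their median size, 0.10 regardless of direction, was not below that of all genes (0.084). The median over all genes was 0.00 on both diets.

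On the HFD, 8 of the 9 genes were higher in *Gpr75*-/- mice and *Gnrh1* was lower, with a median log2 difference of 0.08, but relative to the median of 8 hypothalamus markers only *Ghrh* was higher. The difference was larger than rounding allows for 5 genes, *Oxt*, *Trh*, *Ghrh*, *Sst* and *Tac2*, each of them higher. Among all 16741 genes, 47.1% were higher by any amount and 57.8% differed by more than rounding allows. *Ghrh* was past the 25% difference, as were 5.44% of all genes. Relative to the hypothalamus markers *Ghrh* was at 0.07 (log2) and no longer past it, while *Avp*, *Crh*, *Gnrh1* and *Oxtr* were past it as lower genes. Summed over the 9 genes, the level was 444 CPM in WT and 497 CPM in *Gpr75*-/- mice on the HFD, and 424 and 439 CPM on chow.

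**Figure D2:**
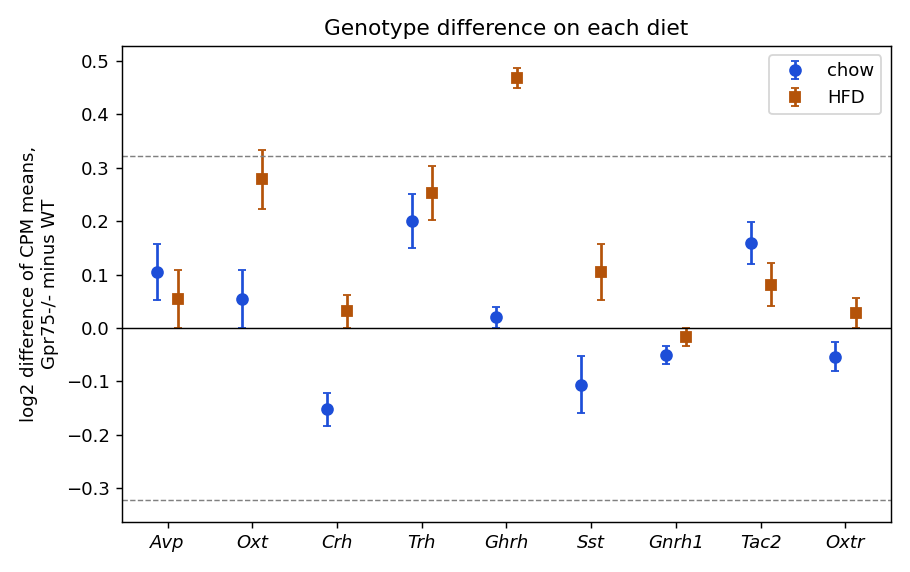
Log2 difference of the group means, *Gpr75*-/- minus WT, for each gene on chow (blue circles) and on the HFD (orange squares). Bars are limits of rounding, not errors between mice, and dashed lines mark the 25% difference. *Ghrh* on the HFD (0.47) is the 1 point outside the lines. Taken relative to the hypothalamus markers (median 0.40 on the HFD, mostly feeding peptide genes), *Ghrh* would lie at 0.07, inside the lines. The other 8 HFD points would lie below 0, with *Avp*, *Crh*, *Gnrh1* and *Oxtr* outside the lines.

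*Oxt*, which encodes oxytocin (ENSMUSG00000027301), had a mean of 110.0 CPM in WT and 114 CPM in *Gpr75*-/- mice on chow, a fold of 1.04 (1.0 to 1.08). On the HFD the means were 119 and 144 CPM. The fold was then 1.21 (1.17 to 1.26), or 0.28 on the log2 scale (-0.12 relative to the hypothalamus markers). The *Gpr75*-/- mean on the HFD was the highest *Oxt* level of the 4 groups. Among 4688 genes with a mean of at least 1000 normalized counts on the HFD, 0.704% had as large a difference in either direction. Other peptide genes of that abundance lay on both sides of *Oxt*. The log2 difference was 0.37 for *Pmch*, 0.33 for *Hcrt* and 0.26 for *Tac1*, but 0.09 for *Nts* and 0.05 for *Adcyap1*, all named after their values were seen.

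*Avp*, which encodes vasopressin (ENSMUSG00000037727), differed less. It was at 88.3 CPM in WT and 94.9 CPM in *Gpr75*-/- mice on chow, a fold of 1.07 (1.04 to 1.11), and at 110.0 and 114 CPM on the HFD, a fold of 1.04 (1.0 to 1.08). The ratio of *Avp* to *Oxt*, in CPM, was 0.803 in WT and 0.831 in *Gpr75*-/- mice on chow. On the HFD it was 0.927 in WT and 0.794 in *Gpr75*-/- mice. The *Avp* differences were common ones, with 23.6% and 44.2% of genes with means of at least 1000 differing as much on chow and on the HFD.

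*Oxtr*, the receptor for oxytocin (ENSMUSG00000049112, chromosome 6, 112450644 to 112466904), is expressed in neurons of many brain regions. Its mean was 7.42 CPM in WT and 7.15 CPM in *Gpr75*-/- mice on chow, and 7.85 and 8.0 CPM on the HFD. The folds were 0.964 (0.946 to 0.982) and 1.02 (1.0 to 1.04).

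*Trh* (ENSMUSG00000005892, chromosome 6, 92219042 to 92221631) encodes the precursor of thyrotropin-releasing hormone. It was higher in *Gpr75*-/- mice on both diets, but relative to the hypothalamus markers it was higher on chow (0.14 on the log2 scale) and lower on the HFD (-0.15). The means were 69.1 and 79.4 CPM on chow, a fold of 1.15 (1.11 to 1.19), and 71.5 and 85.2 CPM on the HFD, a fold of 1.19 (1.15 to 1.23). As large a difference was found for 4.15% of genes with means of at least 1000 on chow and for 1.19% on the HFD.

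*Crh* (ENSMUSG00000049796, chromosome 3, 19747565 to 19749560) encodes corticotropin-releasing hormone. Its mean was 11.1 CPM in WT and 9.97 CPM in *Gpr75*-/- mice on chow, the lowest fold of the 9 genes there at 0.90 (0.881 to 0.919). On the HFD the means were 11.3 and 11.6 CPM, a fold of 1.02 (1.0 to 1.04). Differences as large as the one on chow were found for 21.6% of genes with means of 100 to 1000.

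The growth hormone axis has a driver, *Ghrh*, and an inhibitor, *Sst*. *Ghrh* (ENSMUSG00000027643, chromosome 2, 157171417 to 157189426) was at 3.70 CPM in WT and 3.75 CPM in *Gpr75*-/- mice on chow, a fold of 1.01 (1.0 to 1.03). On the HFD it was at 3.0 CPM in WT and 4.15 CPM in *Gpr75*-/- mice, a fold of 1.38 (1.36 to 1.40). Relative to the hypothalamus markers the log2 difference on the HFD was 0.07, which is not past the 25% difference. The WT mean on the HFD was the lowest of the 4 groups and the *Gpr75*-/- mean the highest. *Ghrh* has few counts, with a mean of 69.9 on the HFD, and 17.3% of genes with means under 100 were past the 25% difference there (5.95% differed by at least as much as *Ghrh*).

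*Sst* (ENSMUSG00000004366, chromosome 16, 23708323 to 23709708) encodes somatostatin, which neurons outside the hypothalamus also make. Its mean was 106 CPM in WT and 98.4 CPM in *Gpr75*-/- mice on chow, a fold of 0.929 (0.895 to 0.964). On the HFD it was at 91.5 and 98.4 CPM, a fold of 1.08 (1.04 to 1.12). The 2 *Gpr75*-/- means were equal at the deposited precision, and the WT means lay on either side of them.

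*Gnrh1* (ENSMUSG00000015812, chromosome 14, 67982630 to 67986888) encodes gonadotropin-releasing hormone, which a small number of scattered neurons make. It was at 2.79 CPM in WT and 2.69 CPM in *Gpr75*-/- mice on chow and at 2.82 and 2.79 CPM on the HFD. The folds were 0.965 (0.954 to 0.977) and 0.988 (0.976 to 1.0). *Tac2* (ENSMUSG00000025400, chromosome 10, 127560347 to 127567637) encodes neurokinin B, which neurons of the arcuate nucleus and of other regions make. It was at 25.2 and 28.2 CPM on chow, a fold of 1.12 (1.09 to 1.15), and at 27.4 and 29.0 CPM on the HFD, a fold of 1.06 (1.03 to 1.09).

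Whether the genotype difference changed with diet was not tested, and the differences on the 2 diets are given side by side. The log2 difference was higher on the HFD than on chow for 7 of the 9 genes and for 50.6% of all genes, and by more than rounding allows for 5 of the 9, against 30.7% of all genes. For *Avp*, *Trh*, *Gnrh1* and *Tac2* rounding leaves the direction unresolved. The log2 difference on the HFD was 0.45 above that on chow for *Ghrh*, 0.22 for *Oxt*, 0.21 for *Sst*, 0.18 for *Crh* and 0.08 for *Oxtr*. The median of the hypothalamus markers, of which 5 are feeding peptide genes, moved further, from 0.06 on chow to 0.40 on the HFD. Relative to these markers the difference was higher on the HFD for 1 of the 9 genes, *Ghrh*, and lower for 8. Of the 16438 genes listed on both diets with a mean of at least 10, the quartiles were -0.10 and 0.11.

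**Figure D3:**
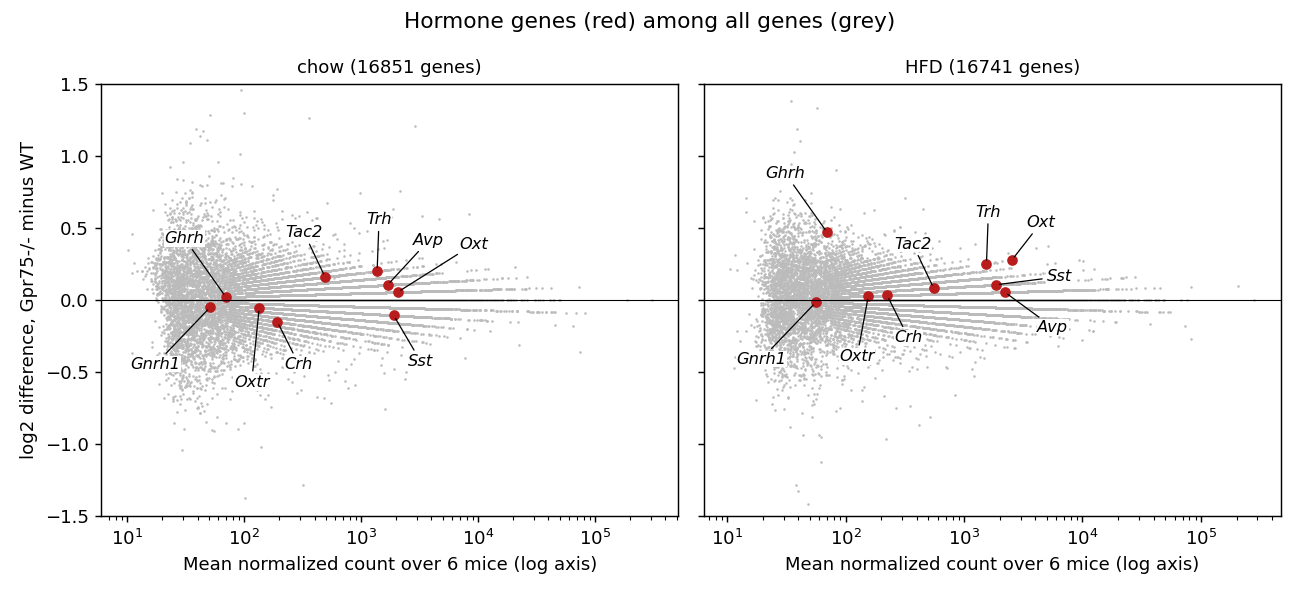
Log2 difference, *Gpr75*-/- minus WT, against the mean normalized count (log axis) for all genes with a mean of at least 10 (grey) and for the hormone genes and *Oxtr* (red), on chow and on the HFD. The grey lines at high counts come from rounding of the deposited means. *Oxt* (0.28) and *Trh* (0.25) lie at the upper edge of the abundant genes on the HFD, while *Ghrh* (0.47) lies among genes with few counts, whose values spread widely.

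Genes of the same hormone systems and of other tissues were counted next. The counts stand against shares of all genes on the HFD of 47.1% higher, 36.1% lower and 5.44% past the 25% difference, and on chow of 44.8%, 41% and 7.57%. Of genes with means under 100, 17.3% were past it on the HFD and 22.4% on chow. Of 20 receptor and binding protein genes, 15 were listed on the HFD, where 9 were higher in *Gpr75*-/- mice, 3 lower and 3 equal, with a median log2 difference of 0.03. Past the 25% difference were 4 of the 15, all higher, of which *Sstr5* has a mean under 100. They included *Crhbp*, which encodes the protein that binds CRH (10.8 and 15.2 CPM, fold 1.40, 1.37 to 1.43), and the CRH receptor gene *Crhr1* (6.64 and 8.82 CPM, fold 1.33, 1.30 to 1.35). The ghrelin receptor gene *Ghsr* was at 4.47 and 5.78 CPM (fold 1.29, 1.27 to 1.31). *Crh* itself was at 1.02-fold on that diet. On chow, 16 of the 20 were listed, with 7 higher, 7 lower, 2 equal and none past the 25% difference.

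Among 15 related or co-released peptide genes, 9 were listed, and all 9 were higher in *Gpr75*-/- mice on the HFD, with a median log2 difference of 0.25, below that of the hypothalamus markers (0.40). The 9 included *Vip*, a peptide gene of the suprachiasmatic nucleus (10.4 and 13.2 CPM, fold 1.27, 1.24 to 1.30), and 3 were past the 25% difference. The other 2 of these, *Npvf* and *Nms*, have means under 100. On chow 3 were higher, 4 lower and 2 equal, with 1 past the 25% difference in each direction (*Ucn3* and *Nms*, both with means under 100), and *Vip* was at 9.37 and 11.6 CPM (fold 1.23, 1.21 to 1.26). Of 16 transcription factor genes of neuroendocrine neurons, all were listed on the HFD, with 9 higher, 3 lower and 4 equal. *Otp* (7.28 and 9.76 CPM, fold 1.34, 1.32 to 1.37) and *Sim1* (6.41 and 8.32 CPM, fold 1.30, 1.27 to 1.32), which are needed for the neurons that make oxytocin, vasopressin, CRH and TRH, were 2 of the 3 past that difference. On chow *Otp* and *Sim1* were at 1.04-fold each, and of 15 listed factor genes 5 were higher and 8 lower. Of 13 genes for peptide processing and secretion, none was past the 25% difference on either diet, with 9 higher and 3 lower on the HFD.

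Markers of the dissected tissue differed between genotypes alongside the hormone genes. All 8 hypothalamus markers were listed. Of these, 5 are feeding peptide genes (*Agrp*, *Npy*, *Pomc*, *Pmch* and *Hcrt*), and the other 3 (*Otp*, *Sim1* and *Nkx2-1*) are also on the transcription factor list above, so these lists are not separate observations. On the HFD 7 of them were higher in *Gpr75*-/- mice by more than 25% (*Agrp* with a mean under 100) and *Nkx2-1* was equal, with a median log2 difference of 0.40 and a summed level of 412 CPM in WT and 525 CPM in *Gpr75*-/- mice. For *Pmch* (fold 1.30, 1.24 to 1.35) and *Hcrt* (fold 1.26, 1.21 to 1.30) the limits of rounding reach below 25%. *Npy* (fold 1.39, 1.35 to 1.42) and *Pomc* (fold 1.38, 1.34 to 1.42) were the largest of those with means of at least 100. The 4 thalamus markers, summed, were at 625 and 526 CPM on the HFD and all were lower, among them *Prkcd* at 150 and 119 CPM. The 5 oligodendrocyte markers were all lower on both diets, at 9317 and 7927 CPM on the HFD and 8974 and 7468 CPM on chow. Of 4 listed cortex and hippocampus markers, 3 were lower on each diet. On chow the hypothalamus markers were at 450 and 463 CPM, with 5 of 8 higher, and the thalamus markers at 758 and 765 CPM. The part of these marker differences in the hormone values was not tested.

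Choroid plexus markers were all higher in *Gpr75*-/- mice on chow (6 of 6, summed 40.0 and 67.3 CPM) and on the HFD were 2 higher and 2 lower (35.2 and 34.2 CPM). These are sums of means of log values. By its mean normalized count *Ttr* alone averaged 159 CPM over the chow mice, against group values of 5.59 CPM in WT and 12.9 CPM in *Gpr75*-/- mice, so at least 1 chow library held far more *Ttr* than its group value. It could not be left out of the hormone values. Red blood cell markers were also all higher on chow (5 of 5, 277 and 443 CPM) and all lower on the HFD (314 and 280 CPM). Of 7 pituitary markers, *Gh*, *Prl*, *Fshb* and *Pou1f1* were listed on neither diet, and the 2 listed on each diet summed to 3.25 CPM or less in every group. The part of these tissues in the hormone values was not tested.

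**Figure D4:**
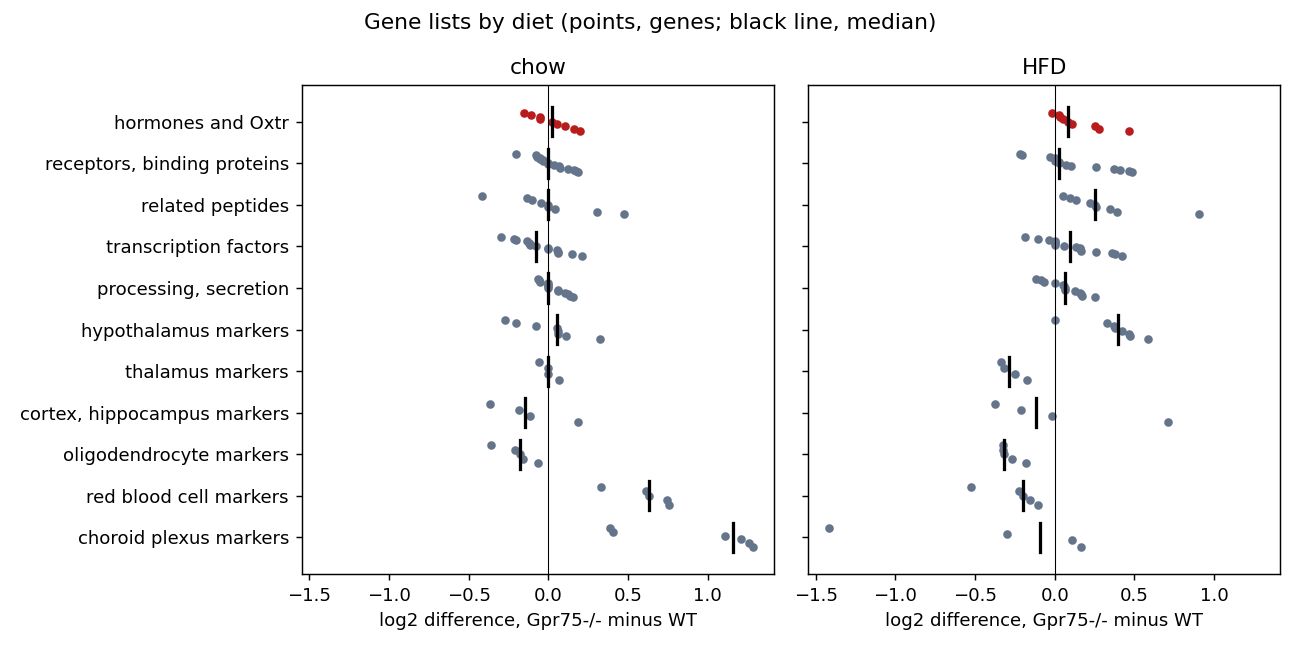
Log2 difference, *Gpr75*-/- minus WT, of each gene in the lists on chow (left) and on the HFD (right), with the hormone genes and *Oxtr* in red and medians as black lines. On the HFD the hormone median (0.08) lies between that of the hypothalamus markers (0.40) and that of the thalamus markers (-0.29), and against the hypothalamus markers 1 of 9 hormone genes is higher and 8 are lower. Of the hypothalamus markers 5 are feeding peptide genes, so this reference is not neutral.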

How the data were processed

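The 12 samples were grouped by the genotype and diet in their titles. Libraries were prepared with a SMART-Seq mRNA kit. The submitters' processing notes name STAR, featureCounts, StringTie, DESeq2 and GRCm39, without versions or order, and the methods state that the authors ran DESeq2 on raw counts. The deposited files hold 1 table for each diet.

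The signal taken from the authors' tables was each gene's mean normalized count, averaged over the 6 mice of a diet after scaling by size factors. The authors also deposited a mean for each group on a log2 scale, to 2 decimals. The scale is not stated. Taken as log2 of 1 plus log2 CPM, it gave group totals of 992419 to 994240 CPM, and for 99.7% and 99.8% of genes with means of at least 100 on chow and the HFD it lay within 0.1 (log2) of the mean count expressed as CPM. *Ttr* on chow, with a mean count of 159 CPM and group means of 5.59 and 12.9 CPM, fits averages taken of log values. The other 9 measurement columns per table are the authors' own fold changes, standard errors, statistics and p-values, and were not used. Those columns hold the only estimate of the spread between mice, so no test was run.

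Differences are *Gpr75*-/- minus WT in log2 CPM. They do not depend on the added 1. Past the 25% difference means over 25% higher or over 20% lower, among genes with a mean of at least 10 normalized counts. Lengths are medians of GENCODE M21 protein-coding transcripts, matched by Ensembl identifier for 13825 of 13867 protein-coding genes on chow. Coordinates of genes are as deposited and those of promoters are GRCm38.p6. The arithmetic of the conversion, but not the scale itself, was tested on simulated data. The genes and lists were chosen with earlier results of these data known. Beside the hormone genes and *Oxtr*, list genes were named if past that difference with a mean of at least 100, at most 4 per list and diet. *Pmch*, *Hcrt*, *Agrp*, *Nkx2-1*, *Tac1*, *Nts*, *Adcyap1*, *Sstr5*, *Npvf*, *Ucn3*, *Nms* and *Kiss1r* were named outside that rule. Tissue markers are given mainly as sums, and not all of those that met the rule were named. Python 3.11.15, numpy 2.4.6, pandas 2.3.3 and matplotlib 3.10.9 were used.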

Additional observations from a re-analysis of the deposited data

How the results depend on the processing

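No paired analysis was possible because no value of a single mouse was used, and for the same reason no mouse could be left out. Centring on all genes, whose median is 0, a pseudocount of 1 CPM and the values as deposited cannot turn a direction by their construction and say nothing about stability. With a limit of 1.1-fold in either direction, 3 hormone genes were past on each diet (0 and 1 at 25%), and with 1.5-fold there were 0 on the HFD. On chow *Crh* (-0.15) was among the 3, as a lower gene. For all genes, the counts past the 25% difference, 1275 on chow and 911 on the HFD, became 280 and 179 with means of at least 100, 563 and 344 with the pseudocount, 623 and 542 for protein-coding genes alone, 5232 and 4440 at 1.1-fold, and 191 and 94 at 1.5-fold.

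Other settings were chosen after the data were seen. At the smallest difference that rounding allows, 3 hormone genes were higher and 4 lower on chow, and 5 were higher and 0 lower on the HFD. At the largest, 2 were past 25% on the HFD, with *Oxt* at 0.33. Relative to the median of the hypothalamus markers, 3 were higher and 6 lower on chow, and 1 was higher and 8 lower on the HFD, where 4 were past 25%. The differences that turned on the HFD were those of *Avp* (-0.35), *Oxt* (-0.12), *Crh* (-0.37), *Trh* (-0.15), *Sst* (-0.29), *Tac2* (-0.32) and *Oxtr* (-0.37), and on chow those of *Oxt* (-0.0023) and *Ghrh* (-0.036). *Ghrh* on the HFD was at 0.07. The count of genes with a higher difference on the HFD than on chow, 7, became 1 in this way. Of the 8 hypothalamus markers 5 are feeding peptides, so this reference is not neutral.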

Other observations

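*Npvf*, which encodes the RFamide peptide that restrains GnRH neurons and is made in the dorsomedial hypothalamus, had the largest difference among the related peptides on the HFD. Its mean of 82.5 normalized counts is below the limit used for naming, and it and the other genes of this paragraph were named after their values were seen. Its level was 2.89 CPM in WT and 5.40 CPM in *Gpr75*-/- mice on the HFD, a fold of 1.87 (1.84 to 1.90 by rounding), and 3.46 CPM in both genotypes on chow. *Gnrh1* was at 0.988-fold on the HFD and the kisspeptin receptor gene *Kiss1r* at 7.02 and 7.15 CPM. The peptide gene *Ucn3* was at 2.49 and 3.46 CPM on chow and at 2.21 and 2.63 CPM on the HFD. *Nms*, another peptide gene with few counts, was at 1.91 and 1.43 CPM on chow and at 1.38 and 1.81 CPM on the HFD. None of these values was set against a spread between mice.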
